A study of Mus musculus with 12 samples.

Results

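The 42 genes described here encode factors of ribosome biogenesis and of the nucleolus, and they were followed in KH2 mouse embryonic stem (ES) cells during the first hours in retinoic acid (RA). They were taken by gene symbol from a named list of RNA polymerase I, small nucleolar ribonucleoprotein (snoRNP), pre-ribosome assembly and abundant nucleolar proteins, and every array probe set annotated to a member was examined. Of the 42 genes, 41 were measured, by 89 of the 45101 probe sets on the array. Mrto4 was not analysed here because its 1 probe set is shared with 2 other genes. The 41 genes are part of the 18194 genes that could be tested, and each is given below by its probe set with the highest mean signal unless another is named.

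The 12 arrays form 4 groups of 3 replicates, lettered A, B and C. These are KH2 cells with no RA exposure, and KH2 cells after 2, 4 or 6 h in a differentiation medium (DMEM with serum and NAA, as the labels write it) that held 0.3 µM RA. All cells were grown on feeder cells, trypsinised and replated on gelatin for 30 min before RNA was taken. No label says that the untreated cells received the differentiation medium, so the change of medium and the RA cannot be told apart. The protocols differ on whether attached or unattached cells were kept after replating. Nothing in the labels makes the replicates separate cultures, so a p-value here covers only how far these arrays varied, which could be technical variation alone.

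Ribosomes are built in the nucleolus. RNA polymerase I transcribes a long precursor that snoRNPs modify at many bases and that assembly factors fold, cut and load with ribosomal proteins, along separate routes for the small and the large subunit. The pathway takes much of the transcription of growing cells, and ES cells, which divide quickly and have large nucleoli, are known for high levels of its factors.

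Values are log2 signal as deposited. Array medians lay between 6.053 and 6.1, and each of the 41 genes was above the array median on every array. All 11 ES cell markers examined were above the array median on every array too, while between 1 and 3 of 21 feeder fibroblast markers were below it. Untreated replicate C stood apart: over all probe sets its correlation with the other untreated arrays was 0.9928 to 0.9935, while untreated A and B correlated at 0.9971 and arrays of one RA time at 0.9971 to 0.998. The 41 genes lay on average 0.0918 below their group mean in it (log2 scale), against 0.0792 and 0.0125 above in untreated A and B, and its feeder markers lay a median of 0.368 below. The untreated group was the most variable for these genes, with a median SD over the genes of 0.111, against 0.0457, 0.0511 and 0.0473 at 2, 4 and 6 h.

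At 4 and 6 h in RA, many of the polymerase I, snoRNP and assembly genes rose by modest amounts. Ncl and Npm1, the members with the highest signal, were called in neither direction by their brightest probe sets, although a dimmer Ncl probe set rose. Averaged over the 41 genes, log2 signal was 11.398, 11.331 and 11.227 on the untreated arrays, 11.294, 11.279 and 11.241 at 2 h, 11.445, 11.488 and 11.452 at 4 h, and 11.5, 11.505 and 11.472 at 6 h. All 6 arrays of 4 and 6 h had higher averages than the arrays of no RA and 2 h, and those of no RA and 2 h overlapped.

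Genes were called in limma where the Benjamini-Hochberg adjusted p over all 18194 genes was under 0.05. After 4 h of RA, 17 genes were called higher and 2 lower than with no RA, which is 41.5% and 4.88% of the 41. Of all genes tested, 12.8% were called higher and 14.1% lower in that comparison. By mean signal the 41 genes stood at percentiles 65.35 to 99.86 of all genes tested. The shares over all genes were not matched for signal level. After 6 h, the calls were 19 higher and 2 lower (46.3% and 4.88%), where 15.0% of all genes were called higher and 14.7% lower. The rises were 1.129-fold to 1.458-fold at 4 h and 1.113-fold to 1.576-fold at 6 h. In 20 genes all 4 h arrays lay above all untreated arrays and in 3 they lay below (18.3% and 18.7% of all genes tested), and at 6 h this held for 21 and 2 genes (19.2% and 19.7%). The median log2 difference of the 41 genes was 0.13 at 4 h and 0.15 at 6 h, beside 0.00 and -0.01 over all genes tested. Leaving out a single array changed the first of these counts the most: without 4 h replicate B, 10 genes were called higher at 4 h. Without untreated replicate C the counts were 17 higher and 2 lower at 4 h and 17 higher and 3 lower at 6 h.

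None of the 41 genes was called by limma at 2 h against no RA, where 1.50% of all genes were called higher and 1.19% lower. At an unadjusted p under 0.05, none was higher and 5 were lower, beside 1491 and 1681 of all 18194 genes tested. The median log2 difference was -0.02. All 2 h arrays were above all untreated arrays in 1 gene and below them in 7 (10.5% and 11.7% of all genes). Between 2 and 4 h, 19 genes rose and none fell (12.7% and 11.9% of all genes tested), with rises of 1.126-fold to 1.531-fold and a median log2 difference of 0.17. The 4 h arrays were all above the 2 h arrays in 27 genes and all below in 3 (22.8% and 23.3% of all genes). The count of 19 was 12 without 2 h replicate B, 12 without 4 h replicate B and 22 without untreated replicate C. From 4 to 6 h none was called in either direction (0.313% and 0.275% of all genes). At an unadjusted p under 0.05, 4 were higher and 1 lower, beside 1239 and 1147 of all 18194 genes tested. The arrays did not overlap in 9 and 1 genes (13.4% and 10.4% of all genes). An F test over the 4 groups called 25 of the 41 genes, against 36.3% of all genes.

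**Figure D1:**
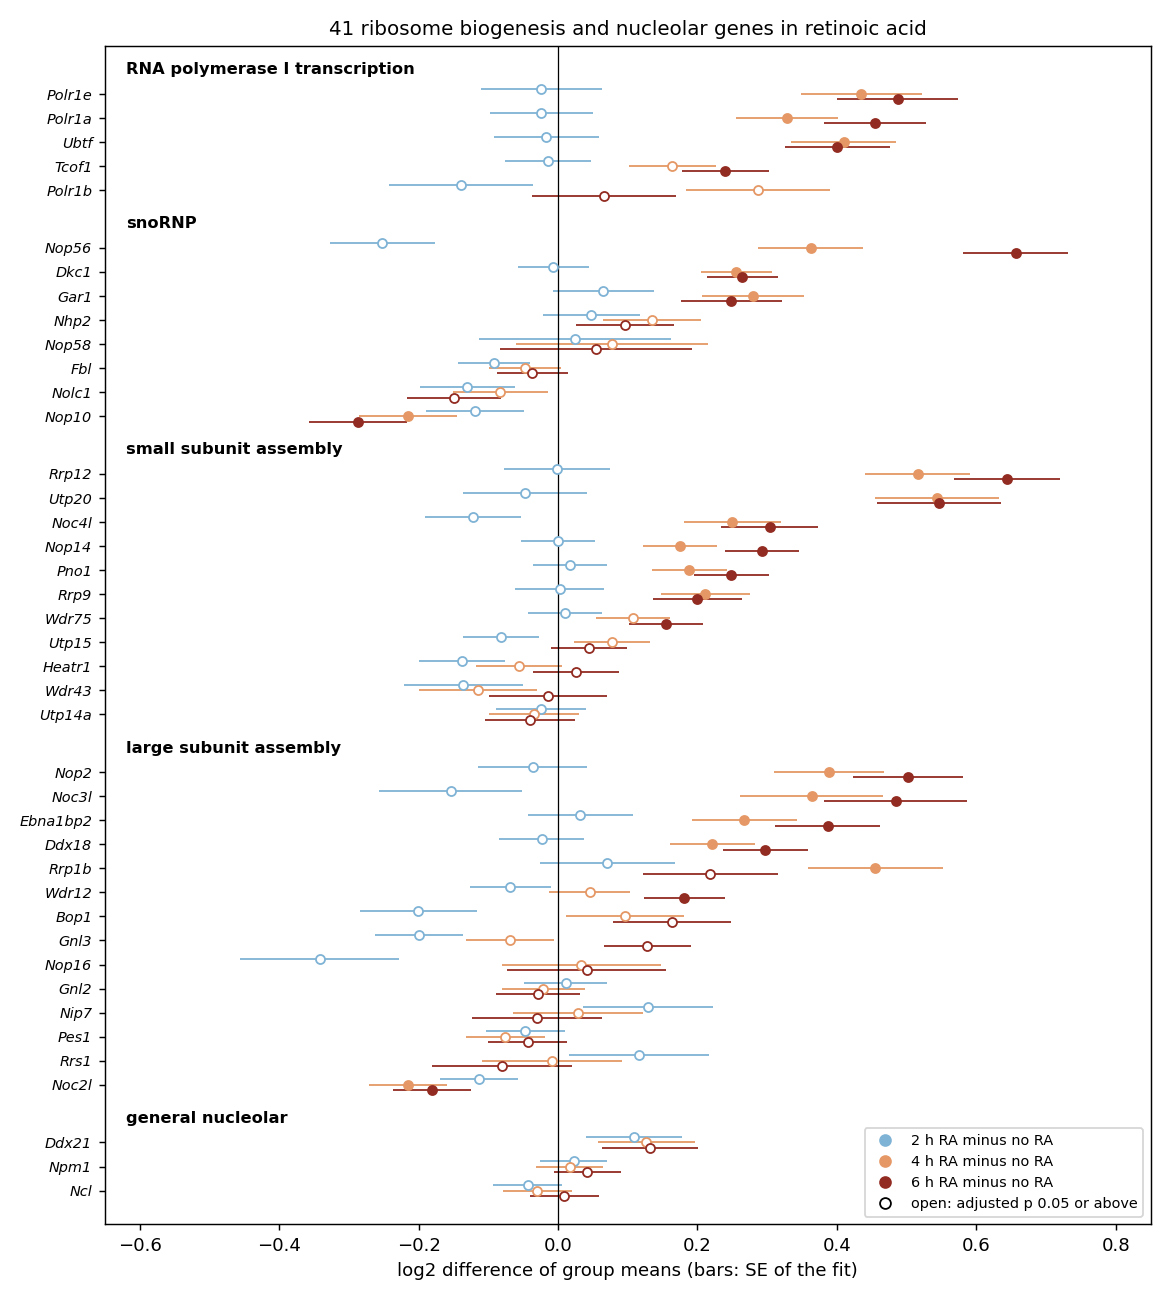
Log2 difference of group means against no RA for the 41 measured genes, by role, at 2, 4 and 6 h in RA (n = 3 arrays a group, bars are the SE of the limma fit, filled points have an adjusted p under 0.05). No point at 2 h is filled, 17 are filled to the right of 0 at 4 h and 19 at 6 h, and only Nop10 and Noc2l are filled to the left.

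Markers of the cells in the culture are given beside these counts. The log2 of the summed signal of the 11 ES cell markers was 16.317 to 16.394 with no RA, 16.306 to 16.341 at 2 h, 16.142 to 16.191 at 4 h and 16.107 to 16.175 at 6 h. Of these markers 1 was called higher and 6 lower at 4 h, and 2 higher and 6 lower at 6 h. The summed signal of the 21 feeder markers was 12.914 to 13.412 with no RA, 13.153 to 13.356 at 2 h, 13.203 to 13.452 at 4 h and 13.02 to 13.233 at 6 h, and all 4 groups overlapped. Of the feeder markers 3 were called higher and 1 lower at 4 h, and 1 higher and 1 lower at 6 h. Beside both marker lists, 12.8% of all genes tested were higher and 14.1% lower at 4 h, and 15.0% and 14.7% at 6 h. The part of either cell type in the values of the 41 genes was not tested. In such a mixture fewer cells of a type and less RNA per cell cannot be told apart.

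Promoter sequences could be set beside these changes for 35 of the 42 genes (RefSeq, GRCm38.p6, the 250 bases before each annotated start). The motifs searched were the GC box GGGCGG, the E-box CACGTG, the ETS core CCGGAAG and the TATA box TATAAA, each on both strands, and none of them contains another. A GC box was found in a promoter of 25 of the 35 genes, or 71.4%, against 53.4% of the 14453 tested genes with a promoter sequence. It was there in 13 of the 18 genes called higher at 4 or 6 h that have a sequence (72.2%) and in 12 of the 16 measured genes not called higher (75.0%). An ETS core was found in 6 of 35 (17.1%, against 11.8%), TATAAA in 2 (5.71%, against 10.5%) and the E-box in 1 (2.86%, against 8.73%). The E-box was that of Nop2, with its first base 60 bases before the start. The median GC content of the members' 44 promoters was 56.6%, against 52.4% over 32851 mouse promoters. Unlike the motif shares, these medians count every promoter of a gene, and the 32851 include genes that were not tested. These are matches of letters and say nothing of what binds there.

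The sequences below, 5′ to 3′ on the gene's strand with GC boxes and the E-box in capitals, are those of Nop56 (chr2:130274162-130274411, plus strand), which rose, and of its box C/D partner Nop58 (chr1:59684756-59685005, plus strand), which was not called. The others are those of Nop2 (chr6:125131633-125131882, plus strand) and Utp20 (chr10:88826815-88827064, minus strand), whose calls at 4 and 6 h were kept when any 1 array was left out, and of Ncl (chr1:86359456-86359705, minus strand), very abundant and not called by its brightest probe set. Each of them holds a GC box, that of Ncl 3 of them, whether the gene was called or not.
Nop56: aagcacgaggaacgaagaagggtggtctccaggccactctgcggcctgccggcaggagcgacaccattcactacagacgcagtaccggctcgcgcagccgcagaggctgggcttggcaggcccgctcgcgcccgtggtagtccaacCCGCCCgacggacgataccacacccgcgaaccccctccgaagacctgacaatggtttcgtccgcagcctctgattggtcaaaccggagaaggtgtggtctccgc
Nop58: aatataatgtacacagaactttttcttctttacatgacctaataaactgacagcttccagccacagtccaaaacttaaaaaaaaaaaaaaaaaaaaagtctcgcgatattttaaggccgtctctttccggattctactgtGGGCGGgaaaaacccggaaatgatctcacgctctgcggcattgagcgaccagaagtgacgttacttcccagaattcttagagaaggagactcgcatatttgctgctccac
Nop2: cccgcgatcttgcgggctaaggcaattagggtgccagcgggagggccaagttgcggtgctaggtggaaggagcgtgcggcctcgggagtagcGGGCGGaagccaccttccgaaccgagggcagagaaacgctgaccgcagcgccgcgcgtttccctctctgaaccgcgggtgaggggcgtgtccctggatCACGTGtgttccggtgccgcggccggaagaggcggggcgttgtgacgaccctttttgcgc
Utp20: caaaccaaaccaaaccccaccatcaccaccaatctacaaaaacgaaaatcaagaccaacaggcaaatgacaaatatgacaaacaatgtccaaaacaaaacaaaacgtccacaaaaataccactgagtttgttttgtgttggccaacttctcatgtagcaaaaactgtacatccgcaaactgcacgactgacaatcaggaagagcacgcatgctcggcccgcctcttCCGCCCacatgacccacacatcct
Ncl: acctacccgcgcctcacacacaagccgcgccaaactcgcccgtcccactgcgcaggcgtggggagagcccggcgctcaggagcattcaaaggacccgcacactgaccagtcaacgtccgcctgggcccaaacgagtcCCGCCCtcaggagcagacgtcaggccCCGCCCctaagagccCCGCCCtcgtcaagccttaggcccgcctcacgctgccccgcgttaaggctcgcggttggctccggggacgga

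RNA polymerase I genes were among those that rose: of 5 genes, 3 were called higher at 4 h and 4 at 6 h. These are 60% and 80%, beside 12.8% and 15.0% of all genes tested. None was lower, beside 14.1% and 14.7% of all genes, and the median log2 differences were 0.33 and 0.40. Polr1e, a polymerase I subunit that acts in initiation and elongation, had log2 signal of 8.83, 8.74 and 8.53 with no RA, 8.71, 8.72 and 8.60 at 2 h, 9.19, 9.08 and 9.13 at 4 h, and 9.16, 9.32 and 9.07 at 6 h. Every array at 4 and 6 h was above every earlier array. The log2 difference against no RA was 0.44 ± 0.087 (SE) at 4 h (limma adjusted p = 0.00298) and 0.49 ± 0.087 at 6 h (adjusted p = 0.00121, 1.4-fold). Polr1a, the largest catalytic subunit, had 9.88, 9.78 and 9.74 with no RA, 9.81, 9.83 and 9.68 at 2 h, 10.11, 10.11 and 10.17 at 4 h, and 10.25, 10.13 and 10.38 at 6 h, again with no overlap between the later arrays and the earlier ones. It rose by 0.33 ± 0.073 at 4 h (limma adjusted p = 0.00571) and by 0.45 ± 0.073 at 6 h (adjusted p = 0.000621, 1.37-fold). Both calls were lost with the mean of its 5 probe sets (adjusted p = 0.251 and 0.168). A dimmer probe set (1456066_a_at) was called higher too, with 0.46 at 4 h and 0.63 at 6 h (limma adjusted p = 0.023 and 0.00333 over all probe sets). The others were not called, and 1447597_at and 1447598_x_at had mean signals of 2.81 and 2.73, well below the array medians.

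Ubtf, which encodes the upstream binding factor that opens ribosomal DNA repeats for the polymerase, gave 11.42, 11.39 and 11.19 with no RA, 11.36, 11.27 and 11.32 at 2 h, 11.81, 11.75 and 11.67 at 4 h, and 11.82, 11.73 and 11.65 at 6 h. The groups fell into a low pair and a high pair with no overlap. Its log2 difference was 0.41 ± 0.075 at 4 h (limma adjusted p = 0.00173) and 0.40 ± 0.075 at 6 h (adjusted p = 0.00168, 1.32-fold), and the difference between 4 and 2 h was 0.43 (adjusted p = 0.00181). With the mean of its probe sets the 4 h values were not called (adjusted p = 0.0729 against no RA and 0.0539 against 2 h). Tcof1, the treacle protein that tethers Ubtf and the polymerase in the nucleolus, gave 10.44, 10.35 and 10.34 with no RA, 10.35, 10.35 and 10.40 at 2 h, 10.50, 10.60 and 10.53 at 4 h, and 10.69, 10.52 and 10.65 at 6 h. It was called only at 6 h, with 0.24 ± 0.062 (limma adjusted p = 0.0116). That call was lost without 6 h replicate A (adjusted p = 0.0521) and with the mean of its probe sets (0.368). Polr1b, the second largest subunit, stood highest at 4 h, with a log2 difference of 0.43 ± 0.103 between 4 and 2 h (limma adjusted p = 0.0109). Against no RA it had 0.29 at 4 h (adjusted p = 0.06, and 0.0317 without untreated C or 0.0282 without 4 h C) and 0.07 at 6 h (adjusted p = 0.698).

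**Figure D2:**
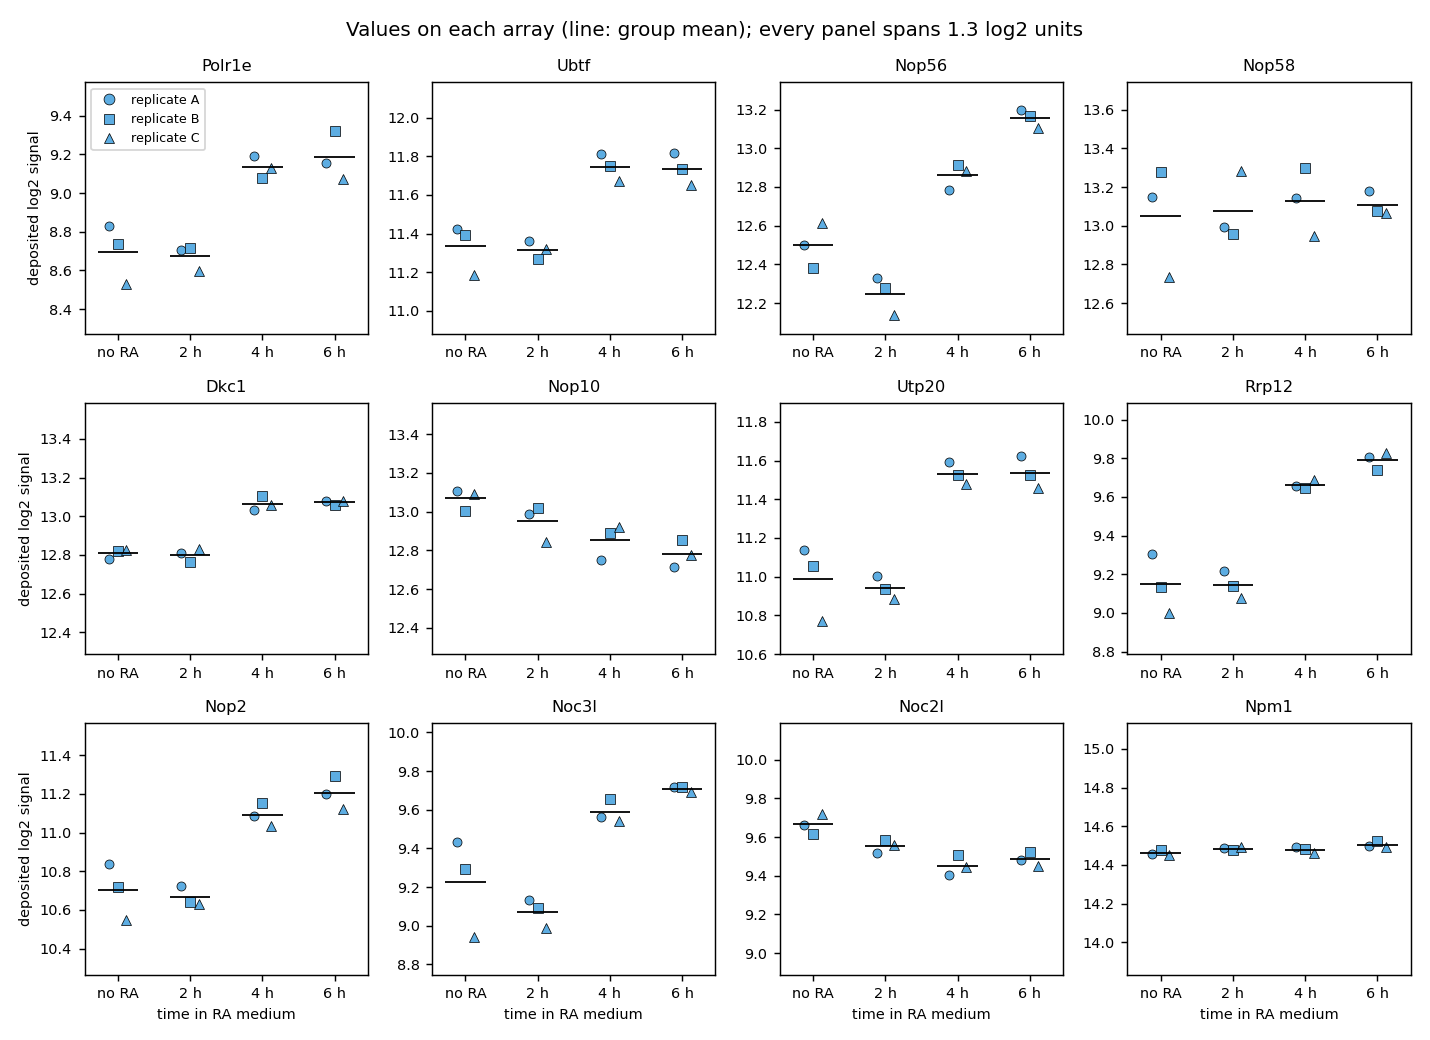
Deposited log2 signal on each array against time in RA medium for 12 of the genes (points are replicates A, B and C, lines are group means, and each panel spans the same number of log2 units). Polr1e, Ubtf, Dkc1, Utp20, Rrp12 and Nop2 show a step between 2 and 4 h, Nop56 a dip at 2 h and a further rise at 6 h, and Nop58 overlaps in all groups, while the Npm1 arrays at 6 h lie just above the untreated ones.

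The snoRNP proteins were mixed. Of 8 genes, 3 were higher and 1 lower at both 4 and 6 h (37.5% and 12.5%). Among all genes tested 12.8% were higher and 14.1% lower at 4 h, and 15.0% and 14.7% at 6 h. The F test was passed by 4 of the 8, beside 36.3% of all genes. Box C/D snoRNPs, which guide ribose methylation, are built on Nop56, Nop58, Fbl (the methyltransferase fibrillarin) and a further RNA-binding protein. Nop56 had log2 signal of 12.50, 12.38 and 12.61 with no RA, 12.33, 12.28 and 12.14 at 2 h, 12.79, 12.91 and 12.88 at 4 h, and 13.20, 13.17 and 13.10 at 6 h. The 4 groups did not overlap, with 2 h lowest and 6 h highest. Its log2 difference against no RA was -0.25 ± 0.075 at 2 h (limma adjusted p = 0.108), 0.36 ± 0.075 at 4 h (adjusted p = 0.00372) and 0.66 ± 0.075 at 6 h (adjusted p = 6.35e-05, 1.576-fold), the largest rise of the 41 genes at 6 h. Both of its probe sets were called at 6 h, with 0.66 and 0.73.

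Its partners Nop58 and Fbl were called in no comparison. Nop58 had 13.15, 13.28 and 12.73 with no RA, 12.99, 12.96 and 13.28 at 2 h, 13.14, 13.30 and 12.95 at 4 h, and 13.18, 13.08 and 13.06 at 6 h, and all groups overlapped. Its SE of 0.138 was the largest of the 41. Fbl had a log2 difference of -0.05 ± 0.052 at 4 h (limma adjusted p = 0.57) and -0.04 at 6 h (adjusted p = 0.659). Whether Nop56 differed from its partners was not tested.

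Box H/ACA snoRNPs, which guide pseudouridylation, hold Dkc1, Gar1, Nhp2 and Nop10. Dkc1, the pseudouridine synthase dyskerin, had 12.78, 12.82 and 12.83 with no RA, 12.81, 12.76 and 12.83 at 2 h, 13.03, 13.10 and 13.06 at 4 h, and 13.08, 13.06 and 13.08 at 6 h, a shift with little spread and no overlap. It rose by 0.26 ± 0.051 at 4 h (limma adjusted p = 0.00294) and by 0.26 ± 0.051 at 6 h (adjusted p = 0.00202, 1.201-fold), the 4 h call being lost with the mean of its probe sets (0.132). Gar1, which binds dyskerin in the mature particle, had 11.52, 11.54 and 11.26 with no RA, 11.53, 11.53 and 11.47 at 2 h, 11.75, 11.71 and 11.70 at 4 h, and 11.68, 11.73 and 11.65 at 6 h. It rose by 0.28 ± 0.073 at 4 h (limma adjusted p = 0.0135) and by 0.25 ± 0.073 at 6 h (adjusted p = 0.0218, but 0.0537 and 0.0768 without 6 h replicates A and B).

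Nop10, the small protein that contacts dyskerin next to the guide RNA, went the other way. It had 13.11, 13.01 and 13.09 with no RA, 12.99, 13.02 and 12.84 at 2 h, 12.75, 12.89 and 12.92 at 4 h, and 12.71, 12.85 and 12.78 at 6 h. All later arrays lay below the untreated ones from 4 h. The log2 difference was -0.21 ± 0.070 at 4 h (limma adjusted p = 0.04) and -0.29 ± 0.070 at 6 h (adjusted p = 0.00862). The 4 h call was lost without untreated A (adjusted p = 0.102), untreated C (0.0711), 2 h A (0.0554), 4 h A (0.154), 4 h B (0.0697) or 6 h C (0.0521), and with the mean of its probe sets (0.107), while the 6 h call was kept in each of these. Nhp2, the remaining core protein, had 0.13 ± 0.070 at 4 h (limma adjusted p = 0.19) and 0.10 at 6 h (adjusted p = 0.354). Nolc1, a chaperone of snoRNPs, had -0.08 ± 0.068 and -0.15 (adjusted p = 0.431 and 0.123), with a 6 h call of -0.22 (adjusted p = 0.00821) without untreated C. A dimmer Nolc1 probe set (1428870_at) went the other way, with 0.26 ± 0.082 at 4 h, called higher (adjusted p = 0.0409 over all probe sets), and 0.20 at 6 h (adjusted p = 0.119).

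Several of these genes also carry small nucleolar RNA (snoRNA) genes in their own introns or span, a known arrangement by which host gene and snoRNA share a transcript. In RefSeq, 6 of the 42 genes had a snoRNA gene inside their span (14.3%), namely Nop56, Nop58, Dkc1, Wdr43, Gnl3 and Ncl, against 312 of 16474 protein-coding genes tested (1.89%). Strand was not compared. Of the 6 hosts, Nop56 and Dkc1 were called higher at 6 h (33.3%, beside 15.0% of all genes tested). The array values are those of the host messenger RNA.

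Small subunit assembly factors were represented by 11 genes, of which 6 were higher at 4 h and 7 at 6 h. These are 54.5% and 63.6%, beside 12.8% and 15.0% of all genes tested. None was lower, beside 14.1% and 14.7% of all genes, and the median log2 differences were 0.18 and 0.20. Utp20, a very large scaffold protein of the small subunit processome, had 11.14, 11.06 and 10.77 with no RA, 11.003, 10.93 and 10.89 at 2 h, 11.59, 11.52 and 11.48 at 4 h, and 11.62, 11.53 and 11.46 at 6 h. It stepped up between 2 and 4 h and then held its level. The log2 difference was 0.54 ± 0.089 at 4 h (limma adjusted p = 0.000838, the largest of the 41 genes at that time) and 0.55 ± 0.089 at 6 h (adjusted p = 0.000656, 1.461-fold). Rrp12, a repeat protein needed for export and maturation of pre-ribosomal particles in yeast, had 9.31, 9.14 and 8.9999 with no RA, 9.22, 9.14 and 9.08 at 2 h, 9.66, 9.64 and 9.69 at 4 h, and 9.81, 9.74 and 9.83 at 6 h. All 6 h arrays exceeded all 4 h arrays, and these exceeded the earlier groups. It rose by 0.52 ± 0.076 at 4 h (limma adjusted p = 0.000435) and by 0.64 ± 0.076 at 6 h (adjusted p = 7.76e-05, 1.562-fold), while the 6 h to 4 h difference of 0.13 was not called (adjusted p = 0.504).

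Nop14 and Noc4l encode proteins that, in yeast, bind each other and are needed to make the small subunit. Noc4l had 10.68, 10.55 and 10.44 with no RA, 10.48, 10.45 and 10.37 at 2 h, 10.75, 10.83 and 10.84 at 4 h, and 10.82, 10.84 and 10.92 at 6 h. It rose by 0.25 ± 0.069 at 4 h (limma adjusted p = 0.0185, lost without 4 h B or C at 0.0637 and 0.061) and by 0.30 ± 0.069 at 6 h (adjusted p = 0.00579). Nop14 had 10.21, 10.13 and 10.12 with no RA, 10.14, 10.17 and 10.15 at 2 h, 10.28, 10.38 and 10.32 at 4 h, and 10.47, 10.45 and 10.41 at 6 h, so both genes were above their earlier arrays from 4 h without overlap. It rose by 0.17 ± 0.053 at 4 h (limma adjusted p = 0.0282, lost at 0.0767, 0.11 and 0.0635 without untreated B, 4 h B or 4 h C) and by 0.29 ± 0.053 at 6 h (adjusted p = 0.00134).

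Pno1, an RNA-binding factor of the late small subunit precursor, rose by 0.19 at 4 h and 0.25 at 6 h (limma adjusted p = 0.0212 and 0.00414), the 4 h call being lost without 4 h A or B (0.0524 and 0.0769). Rrp9, which binds the U3 snoRNA particle, rose by 0.21 and 0.20 (adjusted p = 0.0273 and 0.0324). Its calls were lost at both times without untreated B (0.0695 and 0.0806) or untreated C (0.0629 and 0.0728), at 4 h without 4 h B or C (0.0805 and 0.0917) and at 6 h without 6 h B or C (0.0833 and 0.101). Wdr75, a factor of early rRNA transcription and processing, was called at 6 h alone (0.15, adjusted p = 0.0467). It lost that call without any array other than untreated A, with adjusted p of 0.0597 to 0.161, and with the mean of its probe sets (0.0569). The other 4 genes, Heatr1, Utp14a, Utp15 and Wdr43, all proteins of the small subunit processome, were called in no comparison by their brightest probe sets. Of these Utp15 and Wdr43 each gained a call without untreated C. That of Utp15 was 0.16 between 4 and 2 h (adjusted p = 0.0291, and 0.0436 without 4 h A) and that of Wdr43 -0.21 at 4 h (adjusted p = 0.0313).

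Large subunit assembly factors were the biggest group, with 14 measured genes. At 4 h and at 6 h 5 were higher and 1 lower (35.7% and 7.14%). The shares of all genes tested were 12.8% and 14.1% at 4 h, and 15.0% and 14.7% at 6 h. The F test called 10 of the 14, beside 36.3% of all genes. Their median log2 difference was 0.04 at 4 h and 0.15 at 6 h. Nop2, a methyltransferase of the large subunit rRNA that marks proliferating cells, had 10.84, 10.72 and 10.55 with no RA, 10.73, 10.64 and 10.63 at 2 h, 11.08, 11.15 and 11.04 at 4 h, and 11.20, 11.29 and 11.12 at 6 h. The later arrays were above the earlier ones without overlap. It rose by 0.39 ± 0.079 at 4 h (limma adjusted p = 0.00325) and by 0.50 ± 0.079 at 6 h (adjusted p = 0.000517, 1.416-fold). Noc3l, whose yeast counterpart acts with a Noc2 protein in moving large subunit precursors to the nucleoplasm, had 9.43, 9.30 and 8.94 with no RA, 9.13, 9.09 and 8.99 at 2 h, 9.56, 9.66 and 9.54 at 4 h, and 9.72, 9.72 and 9.69 at 6 h. The untreated arrays spread widely and still lay below those of 4 and 6 h. It rose by 0.36 ± 0.103 at 4 h (limma adjusted p = 0.0205, and 0.075 without 4 h B) and by 0.48 ± 0.103 at 6 h (adjusted p = 0.00377, 1.399-fold).

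Noc2l, the mammalian Noc2 protein, was the large subunit gene that fell, with 9.66, 9.62 and 9.72 with no RA, 9.52, 9.58 and 9.56 at 2 h, 9.40, 9.51 and 9.45 at 4 h, and 9.48, 9.52 and 9.45 at 6 h. All RA arrays were below all untreated arrays. Its log2 difference was -0.22 ± 0.056 at 4 h (limma adjusted p = 0.013, and 0.0542 without 4 h A) and -0.18 ± 0.056 at 6 h (adjusted p = 0.0282, lost at 0.0563, 0.0533, 0.0715 and 0.0852 without untreated A, untreated C, 6 h A or 6 h C). Neither call was kept with the mean of its probe sets (0.242 and 0.182).

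Ebna1bp2, an assembly factor of early large subunit particles in yeast, had 11.45, 11.46 and 11.19 with no RA, 11.43, 11.46 and 11.32 at 2 h, 11.65, 11.67 and 11.59 at 4 h, and 11.76, 11.75 and 11.75 at 6 h. Its 4 and 6 h arrays were above the earlier ones. It rose by 0.27 ± 0.075 at 4 h (limma adjusted p = 0.0202, lost without 4 h A or B at 0.0595 and 0.0677) and by 0.39 ± 0.075 at 6 h (adjusted p = 0.00216). Both calls were lost with the mean of its probe sets (adjusted p = 0.176 and 0.193). Rrp1b, a nucleolar relative of a yeast large subunit factor, stood highest at 4 h, with 11.40, 11.31 and 10.94 with no RA, 11.33, 11.26 and 11.28 at 2 h, 11.72, 11.68 and 11.62 at 4 h, and 11.45, 11.45 and 11.40 at 6 h. It rose by 0.46 ± 0.097 at 4 h (limma adjusted p = 0.00438), with 0.22 ± 0.097 at 6 h (adjusted p = 0.115, and 0.0308 without untreated A). The 6 h to 4 h difference of -0.24 was not called (adjusted p = 0.327, and 0.0294 without untreated C). This pattern rests on 1 probe set, since the log2 differences of the other 2 for this gene at 4 h were -0.02 and -0.04 and neither was called, and the mean of the probe sets gave 0.13 at 4 h (adjusted p = 0.228).

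Ddx18, an RNA helicase, rose by 0.22 at 4 h and 0.30 at 6 h (limma adjusted p = 0.0181 and 0.00302), the 4 h call being lost without 4 h A or B (0.0508 and 0.0715). Both were lost with the mean of its probe sets (0.148 and 0.0592). Pes1, Bop1 and Wdr12 form the PeBoW complex of large subunit maturation, and each behaved in its own way. Wdr12 was called at 6 h, with 0.18 ± 0.058 (limma adjusted p = 0.0329, lost at 0.0557 to 0.107 without untreated A, untreated B or any 6 h array, and at 0.786 with the mean of its probe sets). Bop1 was called only between 4 and 2 h, with 0.30 ± 0.084 (adjusted p = 0.0234, lost at 0.0649 to 0.0954 without 2 h B, 2 h C, 4 h B or 4 h C, and at 0.0827 with the mean of its probe sets), against 0.16 at 6 h versus no RA (adjusted p = 0.177, and 0.0444 without untreated A). Pes1 had -0.08 ± 0.057 at 4 h and -0.04 at 6 h (adjusted p = 0.384 and 0.632).

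Nop16, whose yeast counterpart acts in large subunit assembly, had its lowest level at 2 h by its brightest probe set. The difference from no RA was -0.34 ± 0.114 (limma adjusted p = 0.15, and 0.0356 without untreated B). Its rise of 0.37 between 2 and 4 h (adjusted p = 0.0322) was lost without any 1 array of 2 or 4 h (0.0608 to 0.103). The other Nop16 probe set (1451414_at) had 0.22 at 2 h (adjusted p = 0.335 over all probe sets). With the mean of its probe sets Nop16 was called higher at 4 and 6 h (0.43 and 0.42, adjusted p = 0.00399 and 0.00444). Gnl3, nucleostemin, a nucleolar GTPase known for its high level in stem cells, passed the F test alone (adjusted p = 0.00859), with -0.20 at 2 h, -0.07 at 4 h and 0.13 at 6 h. Rrs1, Nip7 and the GTPase Gnl2, all with yeast counterparts in large subunit maturation, were called in no comparison by their brightest probe sets, although Rrs1 had -0.23 at 6 h without untreated C (adjusted p = 0.0106).

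None of the 3 genes of general nucleolar proteins was called by its brightest probe set. By mean signal Ncl and Npm1 stood at percentiles 99.71 and 99.86 of all genes tested. Whether signal this high follows changes of the messenger RNA was not tested. Nucleolin, Ncl, an RNA-binding protein of the rRNA precursor, had 14.27, 14.23 and 14.20 with no RA, 14.21, 14.16 and 14.20 at 2 h, 14.19, 14.22 and 14.20 at 4 h, and 14.23, 14.23 and 14.26 at 6 h. Nucleophosmin, Npm1, the main protein of the granular nucleolus, had 14.46, 14.48 and 14.45 with no RA, 14.49, 14.48 and 14.49 at 2 h, 14.49, 14.48 and 14.46 at 4 h, and 14.50, 14.52 and 14.49 at 6 h. The log2 difference at 6 h was 0.01 ± 0.05 for Ncl (limma adjusted p = 0.921) and 0.04 ± 0.048 for Npm1 (adjusted p = 0.574), whose 6 h arrays all lay above the untreated ones by this small amount. With the mean of its probe sets Ncl was called higher at 6 h (0.28, adjusted p = 0.014). Ddx21, a helicase of polymerase I and snoRNP function, had 0.13 ± 0.069 at both 4 and 6 h (adjusted p = 0.217 and 0.186), and its 2 h arrays all lay above the untreated ones (0.11, adjusted p = 0.441).

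Calls were also set beside signal level, with the 41 genes split at their median level of 11.47 over all arrays. Of the 20 genes above it, 7 were higher and 1 lower at 4 h and 9 higher and 1 lower at 6 h, with median log2 differences of 0.06 and 0.11. Of the 21 at or below it, 10 were higher and 1 lower at both times, with median differences of 0.18 and 0.20. Over all genes tested 12.8% were higher and 14.1% lower at 4 h, and 15.0% and 14.7% at 6 h. The difference between the members above and below their median level was not tested.

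Of the 89 probe sets of these genes, 24 were called higher and 2 lower at 4 h (over all probe sets, 9.32% and 9.35%), and 29 higher and 2 lower at 6 h (10.8% and 9.82%). None was called at 2 h (0.900% and 0.902%). Between 4 and 2 h, 29 were higher and 1 lower (9.23% and 7.07%), and none was called between 6 and 4 h (0.104% and 0.0665%). The F test called 39 (25.9%). Of 31 genes with several probe sets, 3 had all of them called higher at 4 h and 3 at 6 h, and none had probe sets called in opposite directions. For a few genes, chosen after their values were seen, a dimmer probe set moved where the brightest did not. A dimmer Ncl probe set (1415772_at) had 10.75, 10.70 and 10.14 with no RA, 10.67, 10.52 and 10.53 at 2 h, 11.36, 11.32 and 11.16 at 4 h, and 11.66, 11.53 and 11.36 at 6 h. It rose by 0.75 ± 0.14 at 4 h (limma adjusted p = 0.00273 over all probe sets) and by 0.99 ± 0.14 at 6 h (adjusted p = 0.000366, 1.98-fold), while the probe set above stayed level at a much higher signal.

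Dimmer probe sets of Pes1 (1416173_at, 1.02 at 6 h, limma adjusted p = 0.000805), Utp14a (1432250_at, 1.05, adjusted p = 0.000898) and Nop16 (1451414_at, 0.79, adjusted p = 0.000227) rose as well. With no RA the Utp14a probe set had 6.23, 6.51 and 5.70, near the array medians of 6.053 to 6.1. That of Pes1 had 7.25, 7.45 and 6.63, so untreated C was lowest in both. The Nop16 probe set had a mean of 6.32 with no RA. The dimmer Nip7 probe set (1453324_at) fell by 0.72 at 6 h (adjusted p = 0.00455). A Gnl2 probe set (1437566_at) rose by 0.41 at 6 h (adjusted p = 0.0034) and by 0.38 between 2 and 4 h (adjusted p = 0.0081), and that of Nolc1 given above rose at 4 h. Which parts of the transcripts these probe sets read was not examined here, so the change of Ncl, Pes1, Utp14a, Nop16, Nip7, Gnl2 and Nolc1 messenger RNA depends on the probe set taken.

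**Figure D3:**
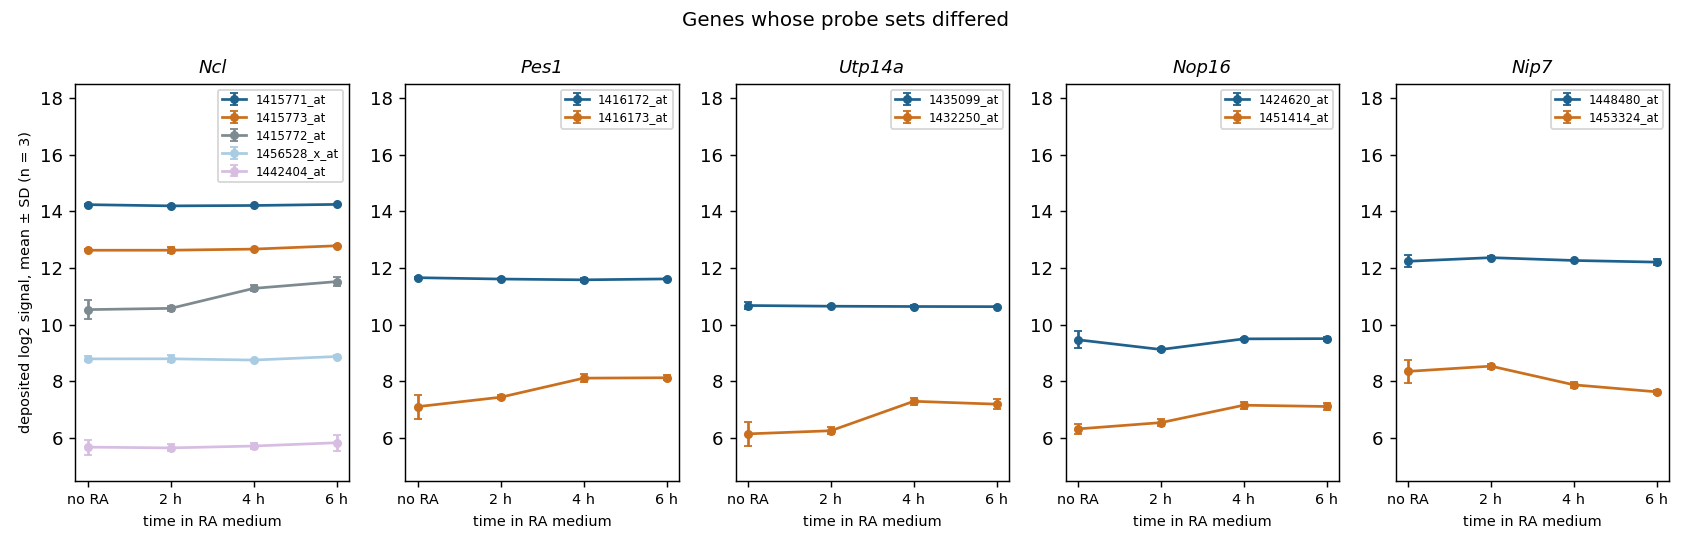
Deposited log2 signal (mean ± SD, n = 3 arrays) against time in RA medium for each probe set of Ncl, Pes1, Utp14a, Nop16 and Nip7. In Ncl, Pes1, Utp14a and Nop16 a lower line rises between 2 and 4 h while the highest line is level over the same hours or, in Nop16, returns from a dip at 2 h; in Nip7 a lower line falls.

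Other genes of the process were read from further lists. All genes tested had 12.8% called higher and 14.1% lower at 4 h, and 15.0% and 14.7% at 6 h. Of 90 other assembly factors measured, 28 were higher and 1 lower at 4 h (31.1% and 1.11%). At 6 h 36 were higher (40%) and none lower, with a median log2 difference of 0.16. The largest changes among them were those of the helicases Ddx56 (0.73 ± 0.064 at 4 h and 0.98 at 6 h, limma adjusted p = 1.56e-05 and 1.36e-06) and Ddx51 (0.58 and 0.59), and of the rRNA methyltransferase Ftsj3 (0.36 and 0.59). Of 28 other genes of RNA polymerases I and III, 8 were higher and 2 lower at 4 h (28.6% and 7.14%). At 6 h 7 were higher and 2 lower (25% and 7.14%). They were led by Polr3a, the largest polymerase III subunit (0.55 and 0.68), Gtf3c6 (0.45 and 0.63) and Brf2 (0.43 and 0.59). Rrn3, the initiation factor that joins polymerase I to its promoter, was called at no time, with log2 differences of 0.20, 0.15 and 0.12 at 2, 4 and 6 h.

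The ribosomal proteins themselves were taken as a cytosolic and a mitochondrial set. Of 42 cytosolic ribosomal protein genes measured (of 76 listed), 3 were higher and 1 lower at 4 h (7.14% and 2.38%). At 6 h 4 were higher (9.52%) and none lower, with a median log2 difference of 0.02. The shares of all genes tested were 12.8% and 14.1% at 4 h, and 15.0% and 14.7% at 6 h. Rpl12 (0.30 at 4 h and 0.59 at 6 h), Rps6 (0.42 and 0.48) and Rps27 (0.24 and 0.35) changed most among the cytosolic genes. Of 74 mitochondrial ribosomal protein genes, 24 were higher and 5 lower at 4 h (32.4% and 6.76%). At 6 h 28 were higher and 4 lower (37.8% and 5.41%, median log2 difference 0.16). The largest changes were those of Mrpl17 (0.31 and 0.53), Mrpl19 (0.45 and 0.52) and Mrps22 (0.34 and 0.48).

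**Figure D4:**
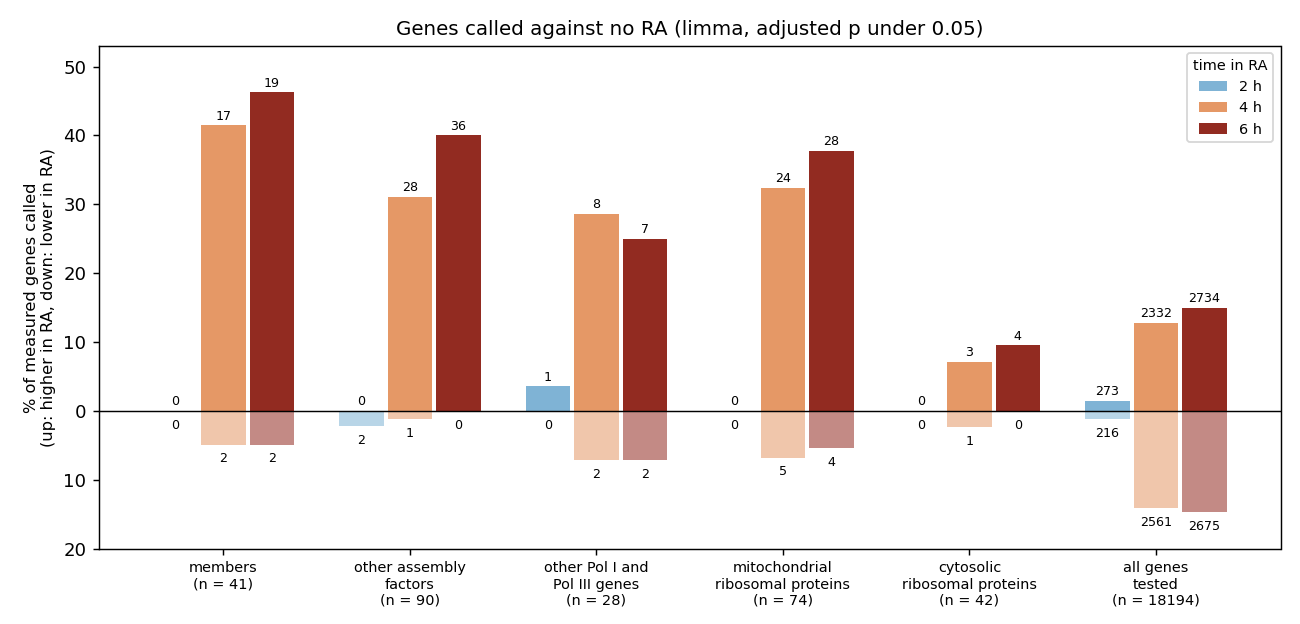
Share of the measured genes of each list called against no RA (limma, adjusted p under 0.05) at 2, 4 and 6 h, with higher upward and lower downward and the number called at each bar. At 6 h the share called higher was 46.3% for the 41 members, 40% for other assembly factors and 37.8% for mitochondrial ribosomal proteins. It was 25% for other polymerase I and III genes, 9.52% for cytosolic ribosomal proteins and 15.0% for all genes tested.

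The Myc and Max network and a set of p53 targets were read as 2 further lists. The Myc family transcription factors drive many ribosome biogenesis genes in growing cells. Of 11 genes of the Myc and Max network 1 was higher and 3 lower at 4 h (9.09% and 27.3%). At 6 h 1 was higher and 4 lower (9.09% and 36.4%), with a median log2 difference of -0.16. Beside these, 12.8% of all genes tested were higher and 14.1% lower at 4 h, and 15.0% and 14.7% at 6 h. Mycn fell by 1.15 ± 0.167 at 4 h (limma adjusted p = 0.000384) and by 1.51 ± 0.167 at 6 h (adjusted p = 5.13e-05). Mnt, a repressor that pairs with Max, fell by 1.27 and 1.04, and Mycl fell by 0.84 and 0.80. Myc itself had log2 differences of 0.15, 0.36 and 0.15 at 2, 4 and 6 h, with an SE of 0.436, and was not called. Nucleolar stress is known to raise p53 targets: of 15 measured, 6 were higher (40%) and none lower at 4 h. At 6 h 3 were higher and 4 lower (20% and 26.7%, beside the 15.0% and 14.7% of all genes tested). Gadd45a had 0.66 at 4 h and 0.49 at 6 h, Perp 0.57 and 0.67, and Cdkn1a 0.08 and -0.57. These lists share the untreated arrays with the values of the 41 genes, and no relation between them was tested.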

How the data were processed

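The deposited values are log2 signal from 12 single-colour arrays, already processed by the authors. The submitters' processing notes list limma 3.4.3, and the normalization is not given in the sources used here. No further normalization was applied. Of 45101 probe sets, 34958 are annotated to 1 gene, 932 to several and 9211 to none; 34754 matched the mouse gene table by identifier and 0 symbols needed updating. Each of 18194 genes was represented by its brightest probe set (mean of the 12 arrays). A model of the 4 group means was fitted in R 4.3.3 by lmFit and eBayes of limma 3.58.1 (degrees of freedom 8 residual, 3.78 prior), with Benjamini-Hochberg adjustment within each comparison and a threshold of 0.05. The script was tested on simulated data. The 42 genes and all lists were chosen with earlier results of these data known. Values of every array are given for up to 4 called genes of each role with the largest changes against no RA, beside Nop58, Noc2l, Ncl and Npm1, added after their values were seen, and of each other list the 3 called genes with the largest changes are named, with Myc, Mycn and Rrn3. The fit did not pair arrays by replicate letter. Correlations of same-letter deviations from the group means ran from -0.128 to 0.315. Those between 4 and 6 h were 0.266, 0.0568 and 0.315 for A, B and C. Arrays of different letters were not compared in this way, so whether letters pair the arrays was not tested. Precision is limited by 3 arrays a group. Figures were drawn with matplotlib 3.10.9.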

Additional observations from a re-analysis of the deposited data

Results flagged for a closer look

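For 19 genes the log2 differences against no RA at 4 h and at 2 h differed from each other by a direct limma test (4 h minus 2 h, adjusted p under 0.05), and all 19 were higher at 4 h. The largest was that of Nop56, 0.6142, followed by Utp20 with 0.5907, Noc3l with 0.5178 and Rrp12 with 0.5174. Polymerase I genes came next, with 0.4595 for Polr1e, 0.4266 for Ubtf and 0.4253 for Polr1b, and Polr1a had 0.3522. Among the large subunit factors Nop2 had 0.4249, Rrp1b 0.3844, Nop16 0.3748, Bop1 0.2966, Ddx18 0.2449 and Ebna1bp2 0.2351. Among the small subunit and snoRNP factors Noc4l had 0.3722, Dkc1 0.2621, Rrp9 0.2088, Nop14 0.1745 and Pno1 0.1711. Of these calls 10 were kept under every alternative other than a required log2 difference of 0.5, which 4 passed, and 12 to 22 genes were called when a single array was left out. Of all genes tested, 12.7% were called higher at 4 h than at 2 h and 11.9% lower.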

How the results depend on the processing

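Counts of called genes were recomputed under every alternative, and 226 of the recomputed values stayed within 1.5 times the reported count while 31 did not. Several reported counts were 0, and a recomputed 0 beside them is among the 226. With a log2 difference of at least 0.5 required as well, 2 genes were higher and 0 lower at 4 h, 4 higher and 0 lower at 6 h, and 4 higher between 4 and 2 h. With only the arrays compared in each fit, 9 were higher and 0 lower at 4 h and 1 was lower at 6 h. A trended and robust variance model gave 2 lower genes at 2 h and 1 higher between 6 and 4 h. Quantile normalization gave 1 lower gene at 4 h. Over all genes tested at 2 h it called 297 higher and 143 lower, against 273 and 216 as reported. Array weights gave 1 lower at 4 h and 1 higher between 6 and 4 h. Averaging the probe sets of each gene gave 0 lower at 4 h and 1 lower between 4 and 2 h. With the replicate letter as a block, 1 gene was lower at 4 h, the F test called 23, and all other counts stayed within 1.5 times. Leaving out each array in turn gave 0 higher and 0 to 1 lower genes at 2 h, 10 to 17 higher and 0 to 2 lower at 4 h, 15 to 20 higher and 1 to 3 lower at 6 h, 12 to 22 higher and 0 lower between 4 and 2 h, 0 to 1 higher and 0 to 1 lower between 6 and 4 h, 19 to 27 genes in the F test and 29 to 45 probe sets. Apart from that required log2 difference and from single other probe sets, calls kept under every alternative numbered 5 of 19 at 4 h (Polr1e, Nop56, Utp20, Rrp12 and Nop2), 12 of 21 at 6 h and 10 of 19 between 4 and 2 h. The sign turned for some genes with other probe sets. With the mean of probe sets Utp14a was called higher at 4 h, at 6 h and between 4 and 2 h (0.557, 0.5034 and 0.5143). Pes1 was called higher in the same comparisons (0.4646, 0.4876 and 0.3218). The limma adjusted p of both genes ran from 0.00141 to 0.0218. Their brightest probe sets were slightly below 0 there (-0.01 to -0.08) and not called, so no called fall was turned. Single other probe sets gave -0.01644 and -0.04392 for Rrp1b at 4 h, -0.1082 for Ebna1bp2 at 6 h, -0.01871 for Dkc1 at 4 h, and for Polr1a -0.1643 at 4 h and -0.07002 and -0.2737 at 6 h. None of these single probe set values was called (limma adjusted p of 0.482 to 0.947), so they differ in sign without a called fall. The cause was not tested in any of these. With 3 arrays a group, changes as small as those at 2 h may be missed.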
